A study of Mus musculus with 2 samples.

Results

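Cd163 Cd209f macrophages is the name used here for tumour leukocytes that carried RNA of Cd163 or Cd209f. Cd163 is the scavenger receptor for haemoglobin bound to haptoglobin, and Cd209f is a C-type lectin of the CD209 family. The cells were chosen by their counts of unique molecular identifiers (UMIs, each standing for 1 captured RNA molecule). A member held at least 2 UMIs of Csf1r, the receptor that macrophages need to survive, and at least 2 of Cd163 and Cd209f together. It held at most 2 UMIs of the T-cell genes Cd3e, Cd3d, Cd3g and Trac together, and fewer than 3 of the division genes Mki67 and Top2a together. This rule gave 152 members among 18112 retained cell barcodes, 122 from FDPS-knockout and 30 from control tumours.

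The tumours were grown under the skin of mice from B16-F10, an established mouse melanoma line, and were taken at day 14. The FDPS-knockout tumours came from B16-F10 cells lacking FDPS, which makes farnesyl diphosphate, a precursor of sterols and isoprenoids in the mevalonate pathway. The control tumours came from B16-F10 cells whose genotype is given as WT and whose title carries the code VC. Each group had 3 tumours, which were digested with collagenase D and DNase I, and live CD45-positive cells (leukocytes) were sorted into 1 droplet library per group. The study asked how the immune cells of FDPS-deficient tumours differ from those of controls. The genotype labels are those of the grafted B16-F10 line, and the macrophages are cells of the host mice. Host strain, sex and age, and whether the knockout line was 1 clone, are not given in the sources used here. With 1 library per group there is no replicate and no test, every difference is one between these libraries, and the 95% intervals cover counting error only.

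Resident tissue macrophages that lie along vessels and in connective tissue are known by Lyve1, Folr2, Mrc1, Timd4 and Cd163, and they clear haemoglobin, dying cells and glycoproteins from the tissue fluid. Macrophages that arise from blood monocytes carry Ccr2 while young and, in tumours, can turn on genes such as Spp1 and Arg1. Interleukin-4 and interleukin-13 act on macrophages through the factor STAT6 and turn on the alternative activation genes, among them Retnla.

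The sequences upstream of Cd163, which picked the cells, and of Retnla, the gene with the largest difference between the libraries, are shown because the results turn on these genes. They are RefSeq's, on GRCm38.p6, and run 5′ to 3′ on the plus strand over chr6:124304401-124304650 for Cd163 and chr16:48842359-48842550 for Retnla. The Retnla stretch stops before the first base of any GENCODE vM21 transcript of that gene. Capitals mark matches, on either strand, to GAGGAA (the letters searched for PU.1), TTNNGCAA (C/EBP), TGCTGA (a MAF half-site), or TTC and GAA parted by any 4 bases (STAT6).
Cd163: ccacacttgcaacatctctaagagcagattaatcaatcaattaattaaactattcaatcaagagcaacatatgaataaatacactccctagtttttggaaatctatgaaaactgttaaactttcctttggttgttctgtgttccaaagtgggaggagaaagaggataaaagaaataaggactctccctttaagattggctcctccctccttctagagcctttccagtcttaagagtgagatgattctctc
Retnla: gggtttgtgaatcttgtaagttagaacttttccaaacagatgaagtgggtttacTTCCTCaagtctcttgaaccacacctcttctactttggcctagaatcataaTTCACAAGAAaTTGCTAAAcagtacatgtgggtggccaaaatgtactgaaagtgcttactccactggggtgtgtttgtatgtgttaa
The Cd163 stretch held none of these letters. The Retnla stretch held 1 match each to the PU.1, STAT6 and C/EBP letters, with no overlap. Of 32851 upstream windows of 250 bases in the same table, 23.3% held the PU.1 letters, 5.85% the STAT6 letters, 9.56% the C/EBP letters and 16.1% the MAF half-site. A match describes letters in a window, not a bound site.

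Members made up 1.40% of retained FDPS-knockout barcodes (exact Clopper-Pearson interval 1.17 to 1.67) and 0.319% of retained control barcodes (0.215 to 0.455), a ratio of 4.40 (2.96 to 6.56). Among the Csf1r macrophages that passed every other gate, members were 122 of 940 FDPS-knockout and 30 of 2630 control cells. As a percentage this is 12.98% (10.9 to 15.3) for FDPS-knockout and 1.14% (0.771 to 1.62) for control tumours. The rule set these shares, and a deeper cell meets a UMI rule more easily. The median member held 15523.5 UMIs in the FDPS-knockout library and 27304 UMIs in the control library, depths that the rule itself shapes. The median of the macrophages that failed only the Cd163 and Cd209f gate was 13615.5 UMIs in the FDPS-knockout and 15799 UMIs in the control library. With barcodes under 5000 UMIs left out and all others thinned to 5000 UMIs before the gates, 47 FDPS-knockout and 10 control cells passed. The ratio of shares was then 4.96. Because the sort took all CD45-positive cells, a share also depends on how many other leukocytes each tumour held.

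The label was checked against its own genes. Cd163 was present in 116 of 122 FDPS-knockout members (95.1%) and in 29 of 30 control members (96.7%). Cd209f was present in 50 FDPS-knockout members (40.98%) and in 2 control members (6.67%), and 1 control cell held 91.7% of the control Cd209f UMIs. Both genes were found together in 44 FDPS-knockout members and in 1 control member. In the control library the name therefore rests on Cd163. In the FDPS-knockout library 72 of 122 members held Cd163 without Cd209f, and markers of dendritic cells, given below, were present too. C1qa, a chain of the complement protein C1q and a general macrophage gene, was present in 90 FDPS-knockout members (73.8%) and in all 30 control members. T cells, which should lack Cd163, held a UMI of it in 1.38% of FDPS-knockout cells (median depth 11607 UMIs) and 0.137% of control cells (median depth 18349 UMIs).

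Just inside the threshold, with exactly 2 UMIs of Cd163 and Cd209f together, lay 27 FDPS-knockout and 14 control members. Just outside, with exactly 1, lay 68 FDPS-knockout and 53 control cells. At 10 UMIs or more lay 51 FDPS-knockout and 8 control members. The libraries shared 30 barcodes, and none of them was a member. Levels below are CPM, UMIs scaled to a common total, of sums over cells: 2175585 UMIs over the FDPS-knockout members and 886767 UMIs over the control members.

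The genes that set members apart from other macrophages in both libraries were led by those of resident and perivascular macrophages. The other macrophages, 818 FDPS-knockout and 2600 control cells, passed the same gates but held fewer than 2 UMIs of Cd163 and Cd209f together. Of 8360 genes measured, 116 (1.39%) were at least 2-fold higher in members in both libraries and 131 (1.57%) at least 2-fold lower; at 1.5-fold the shares were 3.61% higher and 4.1% lower. Members were picked on genes of these same cells, so the counts describe them and test nothing. Of 23 measured resident and perivascular genes outside the rule, 21 were at least 1.5-fold higher in members in both libraries, and these 21 were also at least 2-fold higher. The median log2 ratio of members over other macrophages for this list was 2.27 in the FDPS-knockout and 2.19 in the control library, beside 0.04 in the FDPS-knockout and 0.08 in the control library over all genes.

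Lyve1, a hyaluronan receptor, stood furthest apart, at 149 CPM in FDPS-knockout members and 3.07 CPM in the other FDPS-knockout macrophages. In the control library it was at 164 CPM in members and 5.29 CPM in the others. The log2 ratio of members over others was 4.26 in the FDPS-knockout and 4.03 in the control library. Not every member carried it: Lyve1 was present in 43 of 122 FDPS-knockout and 13 of 30 control members, with a highest level per cell of 2901 CPM in the FDPS-knockout and 2151 CPM in the control library. The 10 members richest in it held 68.3% of the Lyve1 UMIs in the FDPS-knockout and 97.9% in the control library. These are 10 of 122 and 10 of 30 members, and the richest single member held 28.0% in the FDPS-knockout and 29.7% in the control library. Shares in thinned cells, here and below, leave out cells under 5000 UMIs. These were 14 of 122 FDPS-knockout members, 12 of them with Cd209f, and 0 of 30 control members. In cells thinned to 5000 UMIs Lyve1 was present in 25.9% of FDPS-knockout and 30.0% of control members. It was present in 1.33% and 0.845% of other macrophages and 0.0264% and 0.103% of T cells of the same libraries.

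Gas6, which bridges dying cells to their phagocytic receptors, was at 243 and 449 CPM in FDPS-knockout and control members, against 20.5 and 35.1 CPM in the other macrophages of the same libraries. Ednrb, a receptor for endothelins, was at 121 and 289.8 CPM in FDPS-knockout and control members and at 9.44 and 19.9 CPM in the others. Cbr2, a carbonyl reductase, was at 216 and 294 CPM in FDPS-knockout and control members and at 20.6 and 38.9 CPM in the others. Colec12, a scavenger receptor with a collagen-like stalk, Plekhg5, Igfbp4, Cmah, the long non-coding RNA Mir99ahg and Reps2 completed the 10 highest. Their log2 ratios of members over others were between 2.52 and 3.81 in the FDPS-knockout and between 2.56 and 2.98 in the control library.

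The remaining resident genes differed in how widely they spread over members. Folr2, a folate receptor, was at 286 and 399 CPM in FDPS-knockout and control members and at 25.6 and 83.5 CPM in the others, and was present in 62 of 122 FDPS-knockout and 28 of 30 control members. Mrc1, the mannose receptor, was at 1276 and 1839 CPM in FDPS-knockout and control members and at 440.3 and 417 CPM in the others, and was present in 119 FDPS-knockout and all 30 control members. F13a1, a chain of coagulation factor XIII, was at 1441 and 1502 CPM in FDPS-knockout and control members and at 510.4 and 344 CPM in the others. Most members thus carried Mrc1 and fewer carried Lyve1. Timd4, a receptor for phosphatidylserine on dying cells, was at 62.5 CPM in FDPS-knockout and 25.9 CPM in control members, carried by 32 FDPS-knockout and 4 control cells. Ninj1, a cell-surface protein of membrane rupture, was among the genes of the list under 1.5-fold, at log2 ratios of members over others of 0.32 in the FDPS-knockout and 0.18 in the control library.

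Members of both libraries also stood above the others in genes outside that list. Slc40a1, the iron exporter ferroportin, was at 43.2 and 82.3 CPM in FDPS-knockout and control members and at 1.81 and 17.6 CPM in the others. Trf, transferrin, was at 358 and 187 CPM in FDPS-knockout and control members and at 91.2 and 56.9 CPM in the others. Both proteins serve iron traffic. Rbpj, the DNA-binding partner of Notch, was at 2334 and 1581 CPM in FDPS-knockout and control members and at 859.8 and 511 CPM in the others. The growth factors Igf1 and Pdgfc had log2 ratios of members over others of 1.98 and 1.32 in the FDPS-knockout and 2.29 and 2.04 in the control library.

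**Figure D1:**
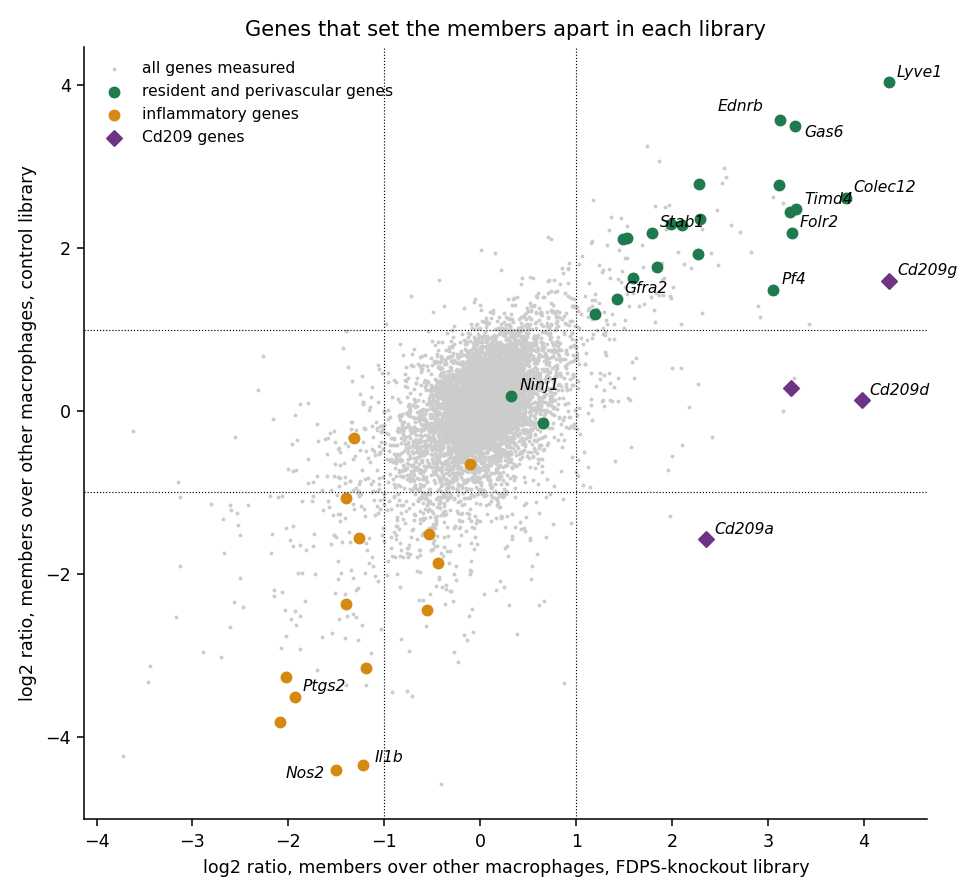
Each point is a gene, with the log2 ratio of members over other macrophages in the FDPS-knockout library on the horizontal axis and in the control library on the vertical axis; dotted lines mark 2-fold. Of 23 resident and perivascular genes, 21 lie past 2-fold in both libraries, while Cd209d lies at 3.98 in the FDPS-knockout and 0.13 in the control library.

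Inflammatory and monocyte genes were the lower ones in members of both libraries. Of 14 measured inflammatory genes, 9 were at least 1.5-fold lower in members in both libraries and 0 higher. Ptgs2, an enzyme of prostaglandin synthesis, was at 55.2 and 5.64 CPM in FDPS-knockout and control members, against 225 and 116 CPM in the others. Clec4e, a sensor of dead cells and microbes, was at 19.3 and 7.89 CPM in FDPS-knockout and control members and at 98.1 and 177 CPM in the others. Of 18 measured classical monocyte genes, 8 were lower in members in both libraries and 0 higher. Ly6c2, the surface marker of classical monocytes, was at 20.7 and 28.2 CPM in FDPS-knockout and control members and at 279 and 328 CPM in the others.

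Cxcl10, an interferon-induced chemokine, stood lowest, at 34.01 and 32.7 CPM in FDPS-knockout and control members, against 512 and 704 CPM in the others. Ly6c2, Ly6i, Hp, Hilpda, C3, Chil3, Sirpb1c and Plac8 were also among the 10 lowest, with log2 ratios of members over others of -2.35 or below in both libraries. Among 18 genes induced by interferon-gamma 9, and among 28 stimulated by type I interferon 10, were at least 1.5-fold lower in members in both libraries, and 0 of either list were higher. Of 22 hypoxia and glycolysis genes 9 were lower and 0 higher.

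Between the libraries, FDPS-knockout members were at least 2-fold higher than control members in 861 of 8476 genes measured (10.2%) and at least 2-fold lower in 660 (7.79%). At 1.5-fold, the threshold used for gene lists, 20.6% of all genes were higher and 20.8% lower. The median log2 ratio over all genes was -0.02. The control sum comes from 30 cells, and a counting interval does not cover how far such cells vary.

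Retnla, a protein secreted by alternatively activated macrophages and one of a small gene family, had 38949 UMIs in FDPS-knockout members and 5 UMIs in control members. This is 17903 CPM in FDPS-knockout and 5.64 CPM in control members, a ratio of 3175 (1360 to 9779). Per cell the lowest, median and highest levels were 0, 5187 and 96972 CPM in FDPS-knockout members and 0, 0 and 121 CPM in control members. It was present in 107 of 122 FDPS-knockout and 2 of 30 control members, so the groups overlapped only among the FDPS-knockout members with little or none. Retnla was also high in the other macrophages of the FDPS-knockout library, at 8805 CPM, against 3.25 CPM in those of the control library. T cells of the FDPS-knockout library had 116 CPM, and 55.0% of them held a Retnla UMI, so free Retnla RNA was present in that library. In cells thinned to 5000 UMIs, 81.5% of FDPS-knockout and 3.33% of control members held Retnla, against 28.3% of FDPS-knockout and 0.0516% of control T cells.

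Ear2, Cd209a, Mucl1, Cd209d, Lyz1, Fhit, Dusp1, Cyp7b1 and Plxdc2 were the next highest. Ear2, a ribonuclease of the eosinophil-associated family with close copies, had 984 UMIs in FDPS-knockout and 3 UMIs in control members, a ratio of 134 (45.6 to 649). Mucl1 had 336 UMIs in FDPS-knockout and 0 in control members, which is at least 45.7-fold higher when the control sum is set to a floor of 3 UMIs. After thinning to 5000 UMIs before the gates, the log2 ratio of FDPS-knockout over control members was 2.14 in place of 5.77 for Ear2 and 1.83 in place of 4.99 for Mucl1. Both genes were also high in the other FDPS-knockout macrophages, at 315 CPM for Ear2 and 196 CPM for Mucl1. Lyz1, a lysozyme gene with a close copy in Lyz2, was at 739.6 CPM in FDPS-knockout and 20.3 CPM in control members. Plxdc2, a receptor with a plexin domain, was at 794 CPM in FDPS-knockout and 31.6 CPM in control members.

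Fhit was at 116 CPM in FDPS-knockout members with 0 UMIs in control members, at least 34.2-fold higher on the same floor, but T cells of the FDPS-knockout library had 114 CPM of it. Cyp7b1, which hydroxylates oxysterols, had 234 UMIs in FDPS-knockout and 0 in control members, at least 31.8-fold higher. With the barcodes of highest doublet score left out, which took 3 FDPS-knockout and 0 control members, its log2 ratio was 2.00 in place of 4.49.

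The CD209 family, lectins that bind sugars rich in mannose and fucose, lies together on chromosome 8. All 5 measured genes outside the rule were at least 1.5-fold higher in FDPS-knockout members, with a median log2 ratio of 3.22, and with 0.65 in the other macrophages. A gene was measured if the CPM of both groups averaged at least 10. Cd209a, Cd209b, Cd209c and Cd209d had at most 1 UMI each in control members and passed only through the FDPS-knockout members. Their direction was thus fixed by the filter. The rule also picked on Cd209f, held by 50 of 122 FDPS-knockout and 2 of 30 control members. Cd209a was at 256 CPM in FDPS-knockout and 1.13 CPM in control members (556 UMIs and 1 UMI), a ratio of 227 (40.5 to 8967). Cd209d was at 179 CPM in FDPS-knockout and 1.13 CPM in control members (389 UMIs and 1 UMI), a ratio of 159 (28.3 to 6279). Cd209a was moderately present in the other FDPS-knockout macrophages, at 45.9 CPM, and Cd209d less so, at 6.68 CPM. Cd209b was at 51.9 CPM in FDPS-knockout and 1.13 CPM in control members, a ratio of 46.1 (8.10 to 1835), and Cd209g at 109 CPM in FDPS-knockout and 10.1 CPM in control members. Cd209c had 56 UMIs in FDPS-knockout and 0 in control members, at least 7.61-fold higher. The genes are close copies of each other and of Cd209f, and how reads matching several of them were assigned is not given, so the split among them is uncertain.

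Other alternative activation genes lay in both directions. Of 14 measured genes 9 were higher and 3 lower in FDPS-knockout members, with a median log2 ratio of 2.05, and of 1.67 in the other macrophages. The members' median was 0.25 after thinning before the gates, and 1.02 in members with 10 or more UMIs of Cd163 and Cd209f. Mgl2, a lectin for galactose, was at 689 CPM in FDPS-knockout and 57.5 CPM in control members. Ccl24, a chemokine for eosinophils, was at 189.8 CPM in FDPS-knockout and 24.8 CPM in control members, and was present in 65 of 122 and 7 of 30 cells. Irf4, a factor that macrophages need for alternative activation, was at 77.2 CPM in FDPS-knockout and 4.51 CPM in control members. Fn1, fibronectin, was at 1348 CPM in FDPS-knockout and 127 CPM in control members. On the other side lay Il4ra, the receptor chain shared by interleukin-4 and interleukin-13, at 44.6 CPM in FDPS-knockout and 292 CPM in control members. Arg1, arginase, was at 95.1 CPM in FDPS-knockout and 273 CPM in control members, and Tgm2, a transglutaminase, at 12.0 CPM in FDPS-knockout and 62.0 CPM in control members.

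**Figure D2:**
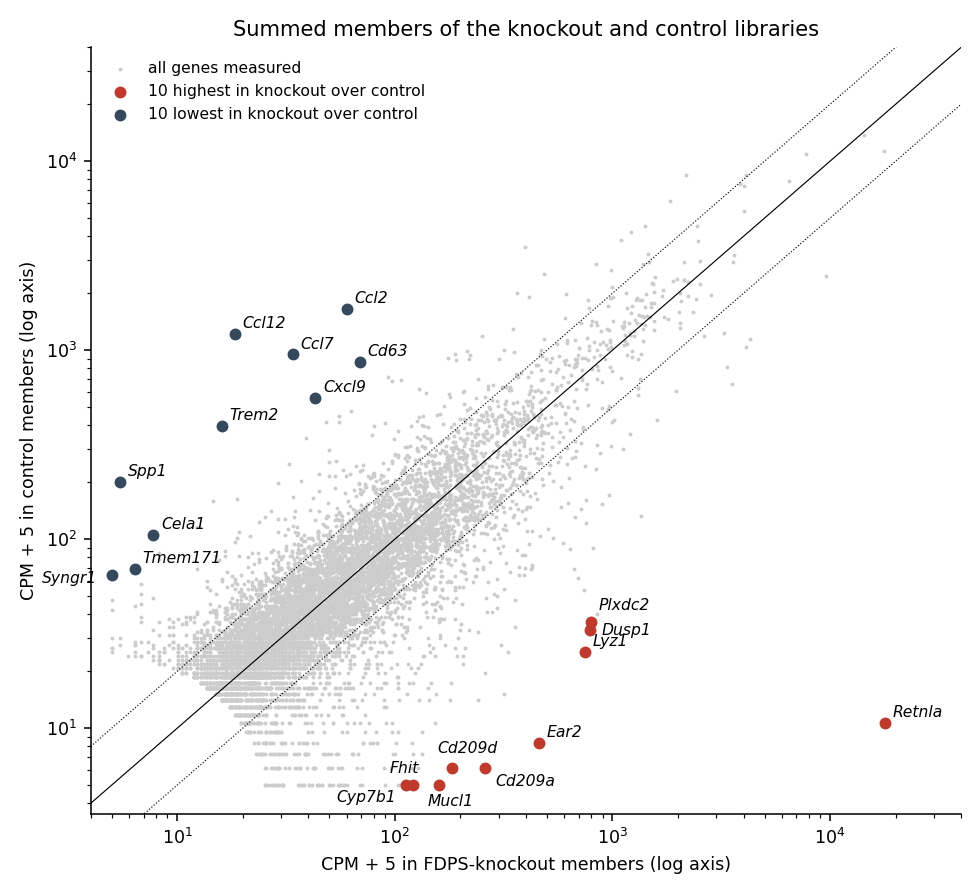
Each point is a gene, with its CPM plus 5 in the FDPS-knockout members and in the control members on log axes; the solid line marks equal levels and dotted lines 2-fold. Retnla, at 17903 CPM in FDPS-knockout and 5.64 CPM in control members, lies furthest from the line, and Ccl12, Spp1, Ccl7, Ccl2 and Trem2 lie furthest on the other side.

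Presentation by MHC class II was higher in FDPS-knockout members. Of 11 measured genes 8 were higher and 2 lower, with a median log2 ratio of 1.91. H2-Ab1, a chain of the class II molecule, was at 4085 CPM in FDPS-knockout and 1037 CPM in control members. Its lowest, median and highest levels per cell were 0, 3288 and 11201 CPM in FDPS-knockout members and 0, 576 and 4247 CPM in control members, so single cells overlapped widely. Cd74, the invariant chain, was at 9528 CPM in FDPS-knockout and 2462 CPM in control members. Ciita, the master regulator of class II genes, was at 236 CPM in FDPS-knockout and 27.1 CPM in control members. The lysosomal enzymes of the list ran the other way: Lgmn was at 359 CPM in FDPS-knockout and 1998 CPM in control members, and Ifi30 at 362 CPM in FDPS-knockout and 717 CPM in control members. The other macrophages had 3863 CPM of H2-Ab1 in the FDPS-knockout and 1851 CPM in the control library, and a list median of 0.87. Of 15 MHC class I genes 2 were higher and 5 lower, with a median of -0.55.

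Chemokines for monocytes were far lower in FDPS-knockout members. Of 17 measured chemokines 10 were lower and 4 higher, with a median log2 ratio of -1.15, which was -0.41 after thinning before the gates. Ccl12, Ccl7 and Ccl2, ligands of Ccr2 in mice that lie together on chromosome 11, led the list. Ccl12 was at 13.3 CPM in FDPS-knockout and 1219 CPM in control members, Ccl7 at 29.0 CPM in FDPS-knockout and 945 CPM in control members, and Ccl2 at 55.2 CPM in FDPS-knockout and 1646 CPM in control members. Their neighbour Ccl8 was at 393 CPM in FDPS-knockout and 3519.5 CPM in control members, with a median per cell of 0 CPM in FDPS-knockout and 1856 CPM in control members. The other macrophages differed in Ccl2 as well, at 139 CPM in the FDPS-knockout and 1425 CPM in the control library. Cxcl9, which attracts T cells through Cxcr3, was at 38.2 CPM in FDPS-knockout and 551 CPM in control members, while the other macrophages were at 524 CPM in the FDPS-knockout and 656 CPM in the control library. Higher in FDPS-knockout members were Ccl24, Ccl17, Ccl5 and Cxcl2, of which Ccl17 had 116 UMIs in FDPS-knockout and 0 in control members, at least 15.8-fold higher.

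Genes of Spp1 and lipid-associated macrophages had the lowest median, at -2.10, and -2.16 in the other macrophages. Of 18 measured genes 14 were lower and 4 higher in FDPS-knockout members. Spp1, osteopontin, had 1 UMI in FDPS-knockout and 173 UMIs in control members, a ratio of control over FDPS-knockout of 424 (75.2 to 16860), and 1 control cell held 50.3% of them. Trem2, a receptor for lipids, was at 11.03 CPM in FDPS-knockout and 394 CPM in control members. Syngr1 had 0 UMIs in FDPS-knockout and 53 UMIs in control members, at least 43.3-fold lower with the FDPS-knockout sum at a floor of 3 UMIs. Cd63, a tetraspanin of late endosomes, was at 63.9 CPM in FDPS-knockout and 858 CPM in control members, Ctsd at 408 CPM in FDPS-knockout and 1911 CPM in control members, and Ctsb at 1399.6 CPM in FDPS-knockout and 4513 CPM in control members. Lpl, lipoprotein lipase, was higher, at 991 CPM in FDPS-knockout and 414 CPM in control members, as was Itgax, CD11c, at 92.8 CPM in FDPS-knockout and 2.26 CPM in control members (ratio 41.2, 11.2 to 342). Cela1 and Tmem171, outside the list, completed the 10 lowest genes with the ones named so far.

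Iron and haem genes were mostly lower in FDPS-knockout members, with 10 of 16 lower, 1 higher and a median log2 ratio of -0.99, which was -0.32 after thinning before the gates. Fth1, the ferritin heavy chain, was at 2174 CPM in FDPS-knockout and 8402 CPM in control members, and Ftl1, the light chain, at 1827 CPM in FDPS-knockout and 6169.6 CPM in control members. Hmox1, which breaks down haem, was at 247 CPM in FDPS-knockout and 1186 CPM in control members. Trf was the higher one. Cd163 itself, the intake receptor and a gene of the rule, was at 588 CPM in FDPS-knockout and 271 CPM in control members.

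Receptor and complement genes lay in both directions. Of 7 Fc receptor genes 5 were lower and 1 higher, of 21 pattern recognition receptors 12 were lower and 1 higher, of 11 scavenger receptors 5 were lower and 2 higher, and of 14 complement genes 7 were lower and 3 higher. Fcgr1, the high-affinity receptor for IgG, was at 50.1 CPM in FDPS-knockout and 413 CPM in control members. Msr1, a scavenger receptor for modified lipoproteins, was at 50.1 CPM in FDPS-knockout and 445 CPM in control members. C1qa was at 1206 CPM in FDPS-knockout and 4201 CPM in control members, with a lowest, median and highest level per cell of 0, 1128 and 8744 CPM in FDPS-knockout and 61.0, 4439 and 7921 CPM in control members. Every control member thus held C1qa, against 90 of 122 FDPS-knockout members. Among the genes that ran the other way were Cd14, the co-receptor for endotoxin, at 145 CPM in FDPS-knockout and 33.8 CPM in control members, and Cfp, properdin, at 713 CPM in FDPS-knockout and 319 CPM in control members. Efferocytosis genes were lower in 8 of 14 and higher in 2, with a median of -0.70 that was 0.60 after thinning before the gates.

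Resident and perivascular genes, the mark of the members in both libraries, had a median log2 ratio of -0.44 between the libraries, with 4 of 23 higher and 8 lower. Lyve1 was at a log2 ratio of -0.13, F13a1 at -0.06 and Mrc1 at -0.53. Gfra2, a receptor for neurturin, was the highest, at 150.3 CPM in FDPS-knockout and 10.1 CPM in control members. Stab1, a receptor for cell debris, was the lowest, at 184 CPM in FDPS-knockout and 953 CPM in control members. In members with 10 or more UMIs of Cd163 and Cd209f the list's median was 0.31, of opposite sign.

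**Figure D3:**
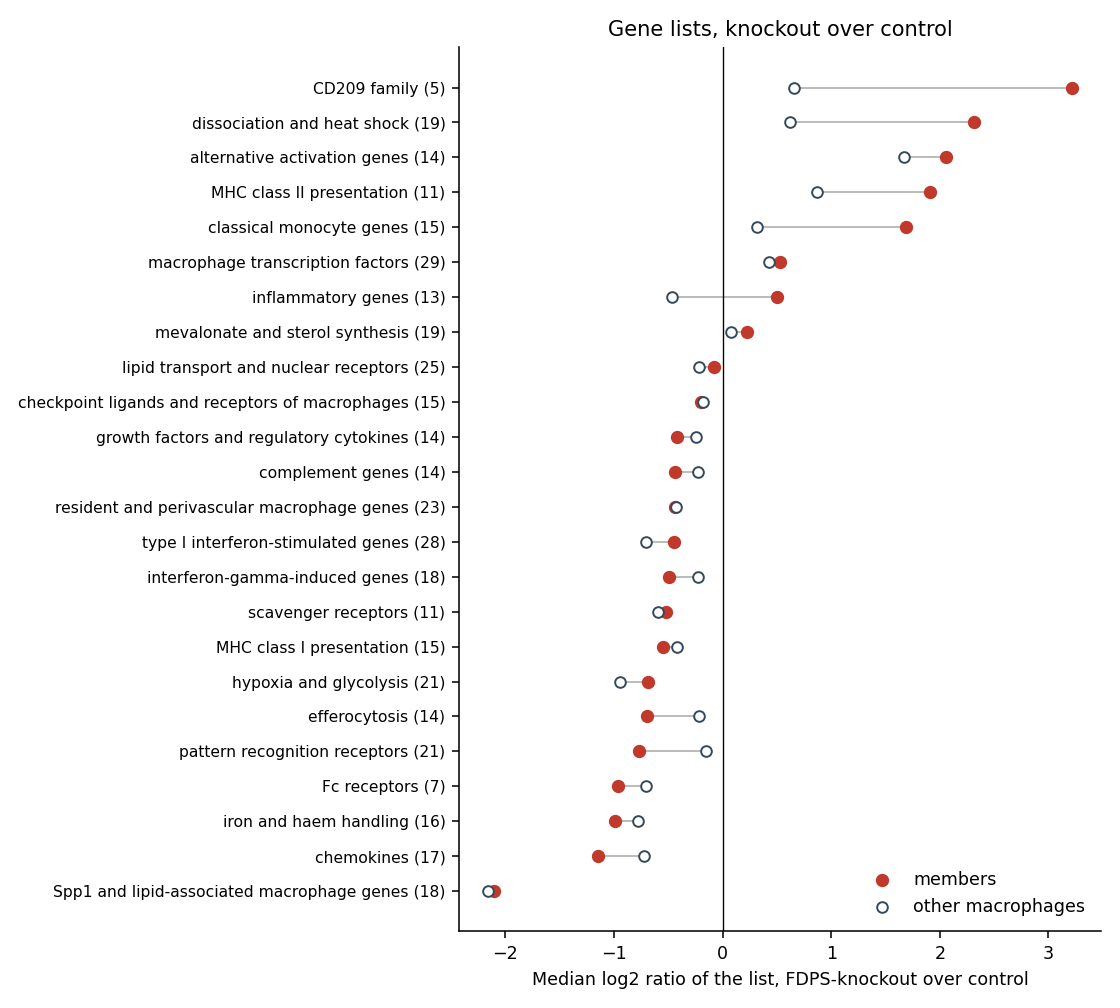
Each row is a gene list with its number of measured genes; filled points give the median log2 ratio of FDPS-knockout over control in members and open points that in the other macrophages. In members the CD209 family (3.22) lies furthest right and the Spp1 and lipid-associated genes (-2.10) furthest left.

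Among 28 genes stimulated by type I interferon, 13 were lower and 2 higher in FDPS-knockout members, and among 18 induced by interferon-gamma, 7 were lower and 1, Ciita, was higher. Of 21 hypoxia and glycolysis genes 12 were lower and 1 higher, and of 25 lipid transport and nuclear receptor genes 8 were lower and 10 higher. Alox15, a lipoxygenase of alternatively activated macrophages, had 90 UMIs in FDPS-knockout and 0 in control members, at least 12.2-fold higher. Of 14 growth factor and cytokine genes 4 were lower and 1 higher, and of 15 checkpoint genes 5 were lower and 5 higher. Of 19 mevalonate and sterol genes 4 were lower and 4 higher. Fdps itself was at 22.98 CPM in FDPS-knockout members (50 UMIs) and 41.7 CPM in control members (37 UMIs), which does not check a deletion made in the melanoma cells.

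Dissociation and heat shock genes, which tissue digestion can turn on, differed with the groups. Of 19 genes 14 were higher and 2 lower in FDPS-knockout members, with a median log2 ratio of 2.31, and of 0.62 in the other macrophages. Hspa1b, a heat shock protein with a near-identical copy in Hspa1a, was at 839 CPM in FDPS-knockout and 34.96 CPM in control members. Dusp1, a phosphatase of stress kinases, was at 779 CPM in FDPS-knockout and 28.2 CPM in control members. The early-response genes Fos, Egr1 and Nr4a1 lay the same way: Fos was at 526 CPM in FDPS-knockout and 95.9 CPM in control members, and Nr4a1 at 175 CPM in FDPS-knockout and 9.02 CPM in control members. Of 29 macrophage transcription factors 12 were higher and 4 lower. The inflammatory gene Il1b was at 237 CPM in FDPS-knockout and 9.02 CPM in control members, and of 13 inflammatory genes 6 were higher and 3 lower. The median mitochondrial share was 2.31% in FDPS-knockout and 3.96% in control members. The part of digestion in these differences was not tested.

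Markers of other cell types differed between the members too. Markers of type 2 conventional dendritic cells, a list that shares Cd209a, Mgl2 and Clec10a with macrophage lists, summed to 1482 CPM in FDPS-knockout and 189 CPM in control members, with 0 of 7 at 0 in FDPS-knockout and 3 of 7 in control members. The same sum was 451 CPM in the other FDPS-knockout and 119 CPM in the other control macrophages. Flt3, the growth factor receptor of dendritic cells, had 51.9 CPM in FDPS-knockout members and 0 UMIs in control members, and Zbtb46, a dendritic cell factor, had 49.6 CPM in FDPS-knockout and 2.26 CPM in control members. Classical monocyte markers, with 0 of 7 at 0 in either group, summed to 918 CPM in FDPS-knockout and 427 CPM in control members. Ccr2 made up most of the FDPS-knockout sum, at 664 CPM in FDPS-knockout and 126 CPM in control members. Of 15 measured monocyte genes 10 were higher and 3 lower in FDPS-knockout members, with a median log2 ratio of 1.68, which was -0.25 after thinning before the gates. Melanoma markers summed to 411 CPM in FDPS-knockout and 694 CPM in control members. Most of this was Mitf, which macrophages also use, at 401 CPM in FDPS-knockout and 533 CPM in control members. The other markers of that list were also higher in control members, among them Dct, at 3.22 CPM in FDPS-knockout and 78.9 CPM in control members. Dct was at 54.2 CPM in FDPS-knockout and 371 CPM in control T cells, so T cells of both libraries held melanoma RNA. T-cell markers summed to 65.3 CPM in FDPS-knockout and 48.5 CPM in control members, against 4352 and 5131 CPM in T cells. The part of these cell types in the differences was not tested.

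**Figure D4:**
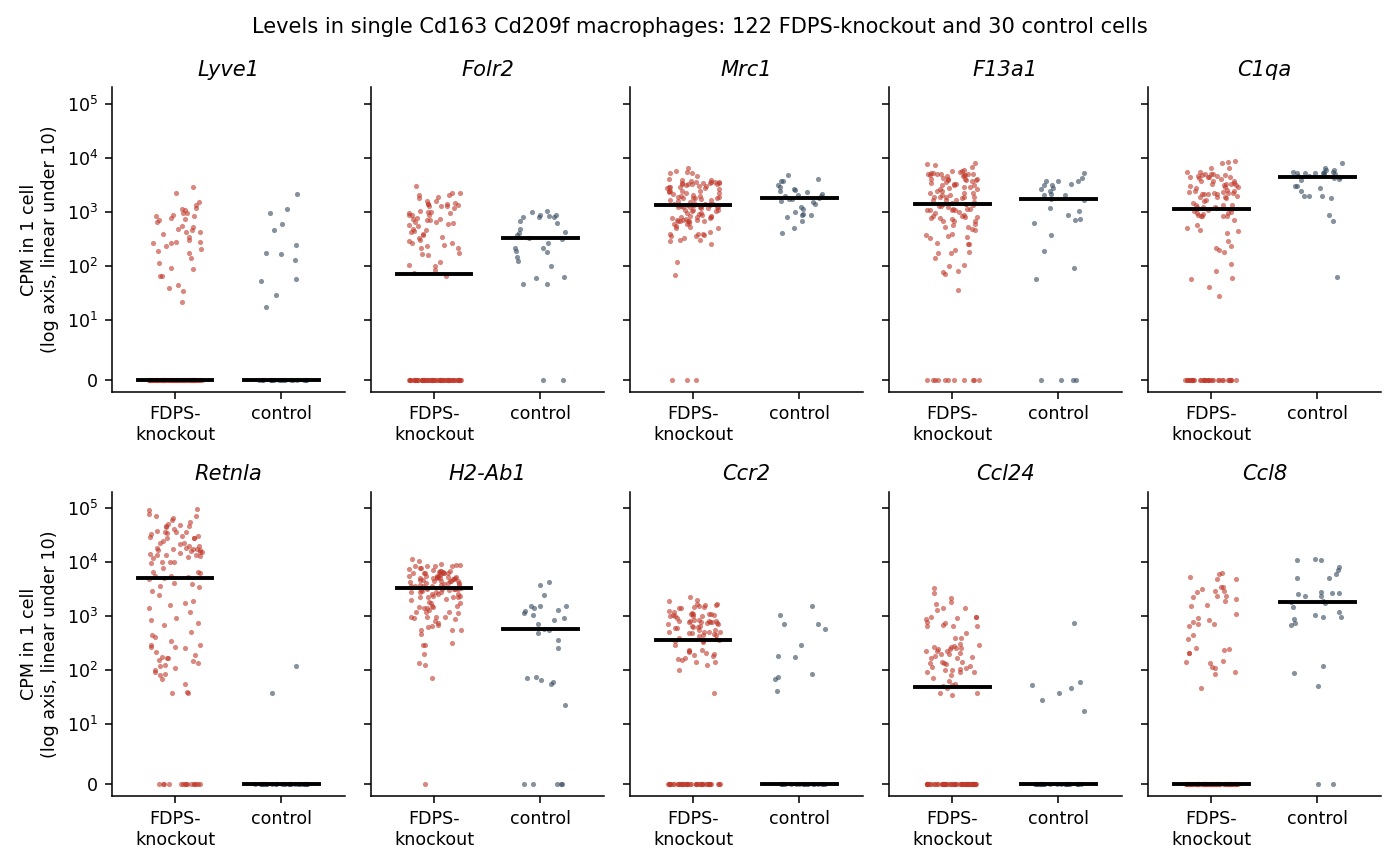
Each point is 1 member, with its CPM on a log axis that is linear under 10, for 122 FDPS-knockout and 30 control cells; black lines are medians. Retnla is present in 107 FDPS-knockout and 2 control cells, while Mrc1 has a median of 1316 CPM in FDPS-knockout and 1752 CPM in control cells.

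FDPS-knockout members were not of 1 kind. The rule picked on Cd209f, so the values of the 50 members with a Cd209f UMI and the 72 without one are a description. Lyve1 was at 431 CPM in members with Cd209f and 33.7 CPM in those without, Folr2 at 754 CPM with and 94.0 CPM without, and Timd4 at 171 CPM with and 18.1 CPM without. C1qa was at 2560.4 CPM with and 651 CPM without Cd209f, and Cd209g at 371 CPM with and 1.30 CPM without. Resident genes thus lay mainly in the cells with Cd209f. Ccr2, Fn1 and Ear2, genes of the monocyte and alternative activation lists, lay on the other side: Ccr2 was at 180.2 CPM with and 863 CPM without Cd209f, Fn1 at 510.5 CPM with and 1691 CPM without, and Ear2 at 166 CPM with and 569.7 CPM without. Cd209a, at 88.5 CPM with and 324 CPM without, went with that second set and not with Cd209g. Retnla was high in both, at 16687 CPM with and 18402 CPM without Cd209f.

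The number of Cd163 and Cd209f UMIs ordered the FDPS-knockout members in the same way. Lyve1 was at 12.98 CPM in members with exactly 2 UMIs, 20.1 CPM in those with 3 to 9 and 395 CPM in those with 10 or more. C1qa was at 401, 942 and 2135 CPM over the same steps. The other FDPS-knockout macrophages had 741 CPM of C1qa, above the members with exactly 2. Folr2 was at 24.3, 150.4 and 639.9 CPM over the steps. Lyve1 and Folr2 were thus concentrated in the cells furthest inside the gate. Mrc1 was present in 92.3%, 87.5% and 100% of cells thinned to 5000 UMIs over the same steps. F13a1 was present in 76.9%, 77.5% and 95.2% of them. Ccr2 was at 855, 819.6 and 347 CPM over these steps, and Fn1 at 2522, 1331 and 414 CPM. Among cells thinned to 5000 UMIs, Lyve1 was present in 57.1% of 42 members with 10 or more UMIs and in 0 of 26 with exactly 2, where the exact interval reaches 13.2%. The FDPS-knockout cells just outside the gate, with exactly 1 UMI, had 371 CPM of C1qa and 945 CPM of Ccr2, near the members with exactly 2. Their Lyve1, at 2.89 CPM, lay below the 12.98 CPM of those members and near the 3.09 CPM of FDPS-knockout cells with 0 UMIs.

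In the control strata, Lyve1 was at 164 CPM in members with exactly 2 UMIs, 106 CPM in those with 3 to 9 and 209 CPM in those with 10 or more. Before thinning, Lyve1 was present in 21.4% of 14, 62.5% of 8 and 62.5% of 8 control cells of these steps. In the same cells thinned to 5000 UMIs, the shares were 21.4%, 37.5% and 37.5%. The exact interval of each 37.5% runs from 8.52% to 75.5%. In the lowest step 2 cells with 43 and 22 Lyve1 UMIs held nearly all of it, and 11 of the 14 cells had none. Folr2 was at 240.4, 541 and 529 CPM over the same control steps, and C1qa at 4202, 4854 and 3662 CPM. The control cells just outside the gate had 73.3 CPM of Lyve1 and 325 CPM of Folr2, above the 3.01 and 75.4 CPM of control cells with 0 UMIs. Single cells weigh heavily in control strata of this size.

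**Figure D5:**
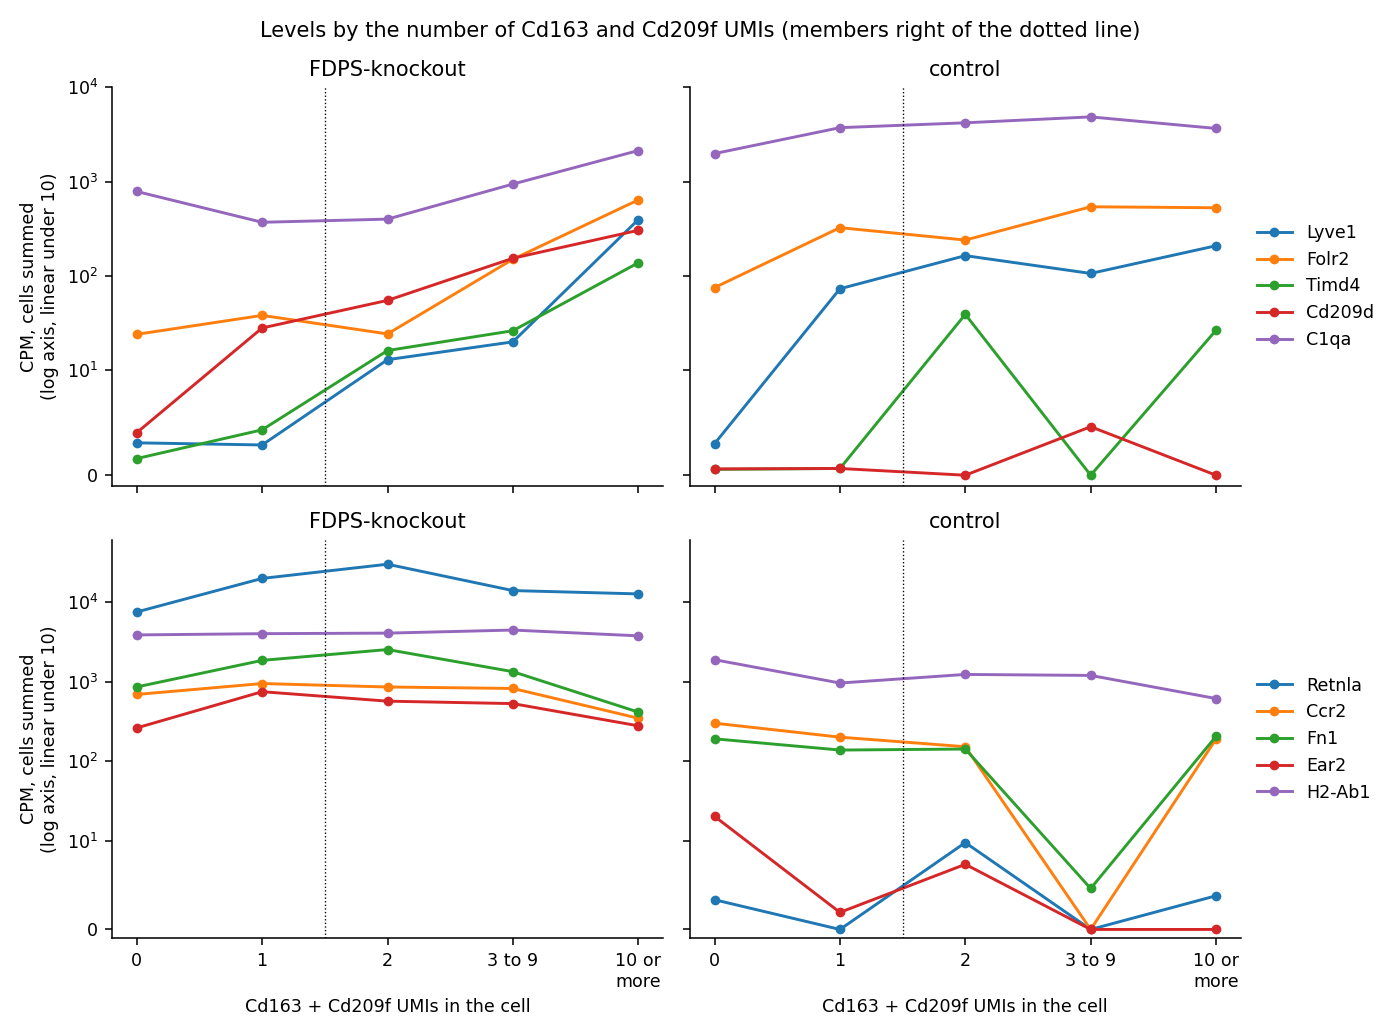
Each line gives the CPM of a gene in summed cells, on a log axis that is linear under 10, by the number of Cd163 and Cd209f UMIs per cell, with the FDPS-knockout library left and the control library right; members lie right of the dotted line. Lyve1 is at 12.98 CPM with 2 UMIs and 395 CPM with 10 or more in the FDPS-knockout library, and at 164 and 209 CPM in the control library.

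Because the strata differ, the libraries were also compared in members richest in the rule's genes, a limit chosen after the data were seen. This did not match the groups in Cd209f, present in 76.5% of these FDPS-knockout and 12.5% of these control cells. With 10 or more UMIs, 51 FDPS-knockout and 8 control members, the log2 ratio of FDPS-knockout over control was 10.48 for Retnla, 5.95 for Cd209d, 5.65 for Cd209a, -5.75 for Ccl2 and -4.24 for Trem2. The MHC class II median was 2.46 and that of Spp1 and lipid-associated genes -1.97. The inflammatory median was -1.80 in these cells, against 0.50 in all members. Members with at least 10 UMIs of the C1q chains, also chosen after the data were seen, were 84 FDPS-knockout and 30 control cells. Their medians were 4.19 for the CD209 family, 1.85 for MHC class II, -1.71 for Spp1 and lipid-associated genes and -0.12 for inflammatory genes.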

How the data were processed

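Live CD45-positive cells of B16-F10 tumours were measured as 1 droplet library per group. The deposited files hold raw UMI counts, whole numbers per gene and barcode. Per the file headers the counts come from Cell Ranger 7.2.0, and per the submitters' processing notes the build is mm10, with an annotation not given in the sources used here. The libraries held 127186298 UMIs in 9130 FDPS-knockout barcodes and 208936136 UMIs in 10882 control barcodes. Barcodes with at least 200 genes and under 10% mitochondrial UMIs were kept, 8697 FDPS-knockout and 9415 control. Counts were summed over cells per library and scaled to CPM (numpy 2.4.6, pandas 2.3.3). Differences are log2 ratios of CPM plus 5, which understate changes of low genes, over genes whose sums average 10 CPM or more. Genes at 0 UMIs in a group are compared with a floor of 3 UMIs over the sum; at that bound each lies on the same side of its list's median. Intervals are exact (Clopper-Pearson, or binomial conditional on the total for ratios; scipy 1.17.1) and cover counting error only. No test was made, with 1 library per group. The log2 ratios were tested on simulated sums with known folds, which did not cover the gates or the summing over cells. Figures were drawn with matplotlib 3.10.9.

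Members, gene lists and marker lists were chosen with earlier results of these data known. The named genes are the 10 highest and 10 lowest log2 ratios of each comparison, leaving out the rule's genes, ribosomal, mitochondrial and haemoglobin genes and genes known only by a model number, and from each list those at its ends and of highest CPM. Further list genes were named for their known function after their values were seen. T cells, as a measure of free RNA, are barcodes with at least 3 UMIs of the T-cell genes and 0 of Csf1r. Doublets were left in. As an alternative, barcodes of highest Scrublet score (scanpy 1.11.5) were removed, 635 FDPS-knockout (7.30%) and 820 control (8.71%), since the automatic threshold marked 0% of FDPS-knockout and 1.53% of control barcodes. Other alternatives changed the gate, depth, mitochondrial limit, pseudocount, filter, scaling and weighting of cells. Positions are those of GENCODE vM21 on GRCm38, which held 99.8% of the gene identifiers. Some genes that the rules would name are not reported here.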

Additional observations from a re-analysis of the deposited data

How the results depend on the processing

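The larger share of members in the FDPS-knockout library held under every alternative run. The direction of all 40 named genes held under every alternative in which levels were run. These genes were picked for the most extreme ratios in these same cells, so their unchanged direction is a description. Of 24 list medians of FDPS-knockout over control, 11 changed sign under at least 1 alternative. In all members 9 of these 11 were smaller than 1.5-fold, the others being the classical monocyte and efferocytosis medians. The ratio of shares was 2.48 with a gate of at least 1 UMI, 6.90 with at least 10 UMIs, 47.6 with a UMI of each of Cd163 and Cd209f (44 FDPS-knockout members, 1 control) and 82.3 without members holding a UMI of T-cell, B-cell, NK or melanoma genes (76 FDPS-knockout members, 1 control). Levels were not run for the last pair, with 1 control cell. A deeper cell passes that last filter less easily, and the median member held 15523.5 UMIs in the FDPS-knockout and 27304 UMIs in the control library. Control members also held more melanoma RNA, with Dct at 78.9 CPM against 3.22 CPM in FDPS-knockout members. The part of depth and of melanoma RNA in the ratio of 82.3 was not tested. Genes higher in members than in other macrophages in both libraries numbered 71 with at least 1 UMI, 189 with each cell weighted equally, 243 with at least 10 UMIs and 337 after thinning to 5000 UMIs before the gates. Genes lower in both numbered 260 with at least 10 UMIs and 399 after thinning. Thinning, which also dropped barcodes under 5000 UMIs, left 47 FDPS-knockout and 10 control cells. In these cells 2072 genes were higher and 2181 lower in FDPS-knockout members. Of these, 467 of the higher and 368 of the lower ones were also so before thinning. After thinning, the efferocytosis median reversed to 0.60 and the classical monocyte median to -0.25; the cause was not tested. Thinning also left medians of 0.25 for alternative activation, -0.32 for iron and haem, -0.41 for chemokines, -0.14 for pattern recognition, -1.55 for hypoxia and glycolysis and 5.03 for the CD209 family, and log2 ratios of -3.65 for Ccl12, -1.87 for Tmem171 and 0.60 for Colec12 in members over others, the smaller value of both libraries. The inflammatory median lay between -1.80 and 1.48 over the alternatives, the complement median between -0.59 and 0.36, and the resident and perivascular median between -0.66 and 0.31. No paired analysis was possible because each group has 1 library. Depth limits genes of few UMIs: 3 UMIs are 1.38 CPM over the FDPS-knockout and 3.38 CPM over the control members.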
